A study of Mus musculus with 4 samples.

Results

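The genes described here are 5 ligands of the bone morphogenetic protein (BMP) family, Bmp2, Bmp4, Bmp6, Gdf5 and Gdf10, and 5 secreted BMP antagonists, Grem1, Chrdl1, Chrdl2, Nog and Fst. They were chosen by symbol, with earlier results of these data known, as 10 of the 32286 genes listed for every library. All 10 were found in each of the 4 libraries. Over all passing cells their unique molecular identifier (UMI) counts ran from 167 for Bmp4 to 7274 for Grem1.

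Single cells were sorted from digested lower thoracic and upper lumbar vertebrae for the red fluorescent protein tdTomato (tdTom+) and against CD11b, CD31 and CD45, and were sequenced with 10x Genomics 3′ chemistry. By the labels, control cells came from Prss56Cre/+; R26tdTom/tdTom; Nf1+/+ mice and mutant cells from Prss56Cre/Cre; R26tdTom/tdTom; Nf1fl/fl mice, each at 3 months and at 12–16 months of age. All groups carry the tdTomato reporter, and Cre is driven from the Prss56 locus, so that the label marks boundary cap cells, which are of neural crest origin, and their descendants, and Nf1 is recombined only there. Nf1 encodes a brake on RAS signaling, and the comparisons ask how its loss changes skeletal cells of this lineage. Mutant mice had 2 Cre alleles and control mice had 1, so the number of Cre alleles and the Nf1 genotype cannot be told apart. Each condition was 1 library, and how many mice were pooled in a library is not given in the sources used here. No comparison between conditions therefore has a replicate, and the words mutant and control name the labels of the libraries. Nf1 itself was counted at 131, 149.7, 147 and 125 CPM (UMIs of the gene scaled to a common total of UMIs) in the order control 3 months, mutant 3 months, control 12–16 months and mutant 12–16 months, which is the order of all values listed by library below. The library reads the 3′ end of Nf1, outside the part that a recombined allele loses, so these values check no label.

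Of 2172 barcodes, 1757 cells passed the filter on UMIs, genes and mitochondrial counts, from 135 in the control library at 12–16 months to 717 in that at 3 months, and no barcode was shared between libraries. Passing cells held 2154537 to 9429264 UMIs per library, with medians of 8189 to 12644 per cell. Cells were gated by markers that are not members. The endplate gate (Sox9 with at least 3 UMIs of Zfp804b and Dab1) held 30, 142, 12 and 38 cells, the other cartilage gate (Sox9 with at least 3 UMIs of Acan) 532, 235, 78 and 220, and the bone/stroma gate (Runx2 with at most 2 UMIs of Acan) 45, 39, 26 and 83. The remaining 277 cells were in no gate. In both cartilage gates the summed hematopoietic, endothelial and mural markers were each at most 8.04 CPM. The bone/stroma gate was mixed. Its own marker genes (Runx2, Sp7, Col1a1, Cxcl12) summed to 54547, 8389, 108839 and 39852 CPM, and the hematopoietic markers Ptprc, Lyz2 and Cd79a to 1.27, 910, 95.7 and 141 CPM, so that the mutant library at 3 months had the fewest bone transcripts and the most blood cell transcripts there. Mural markers summed to 799, 8.12, 11.3 and 484 CPM in the same gate. The mutant library at 3 months also differed from the others in the sex-linked genes, with 1326 CPM of Xist against 696 to 858 and 0.137 CPM of Ddx3y against 10.2 to 25.5, so in it sex and condition cannot be told apart.

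BMP ligands are secreted dimers that bind a pair of type I and type II receptor kinases, which phosphorylate SMAD1, SMAD5 and SMAD9. These move with SMAD4 into the nucleus and switch on genes such as Id1 and Id3. Secreted antagonists bind ligands outside the cell and keep them from their receptors, and some of them, such as noggin, are themselves switched on by BMP signals. In the skeleton the pathway drives cartilage condensation, chondrocyte hypertrophy and bone formation, and antagonists keep joint and disc tissue from ossifying.

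The stretches of 250 bases upstream of the start sites of Grem1 and Gdf10 are shown because the data below place the pair on opposite sides of the cartilage, Grem1 low and Gdf10 high in the endplate gate. RefSeq sequences (GRCm38.p6) were matched for 4 of the 10 members, Bmp4, Bmp6, Gdf10 and Grem1. Capitals mark matches to the letters of 3 motifs that were searched on both strands, TGTGGT of RUNX factors, ACAAAG of SOX factors and GGCGCC, a GC-rich element bound by SMAD1 and SMAD5.
Grem1, chr2:113758649-113758898, minus strand: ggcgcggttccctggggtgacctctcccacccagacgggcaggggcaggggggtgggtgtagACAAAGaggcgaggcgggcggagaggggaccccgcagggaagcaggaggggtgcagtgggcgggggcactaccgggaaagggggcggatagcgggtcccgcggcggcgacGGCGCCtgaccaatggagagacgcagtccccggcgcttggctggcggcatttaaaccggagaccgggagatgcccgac
Gdf10, chr14:33923337-33923586, plus strand: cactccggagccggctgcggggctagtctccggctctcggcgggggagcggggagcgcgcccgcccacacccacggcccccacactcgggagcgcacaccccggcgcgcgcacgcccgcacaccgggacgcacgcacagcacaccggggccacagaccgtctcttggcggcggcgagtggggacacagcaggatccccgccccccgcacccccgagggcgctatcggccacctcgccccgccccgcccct
The Grem1 stretch held 1 match to ACAAAG and 1 to GGCGCC, which are found in 16.5% and 9.59% of 32851 upstream stretches of the same length. The stretches of Gdf10, Bmp4 and Bmp6 held 0 matches, also to TGTGGT, which is found in 14.0%. A match is a stretch of letters and does not show that a factor binds there. Gdf10 was the richer of the pair in G and C, with 78.8% against 72% of bases.

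The 10 genes were made in different cells. A UMI marks the 3′ end of one RNA molecule, so CPM values count molecules and need no correction for length. Of the UMIs of each gene over all 4 libraries, other cartilage held 96.5% for Chrdl2, 94.3% for Gdf5, 89.2% for Grem1, 82.9% for Bmp6, 79.0% for Bmp2 and 76.0% for Nog. Other cartilage had 60.6% of all passing cells and 1.38e+07 of their 2.33e+07 UMIs, the level to set beside its shares. Of these shares, those of Nog and Bmp2 were the nearest to that level. The endplate gate, with 12.6% of the cells and 4.48e+06 of all UMIs, held 57.4% of the UMIs of Gdf10 and 48.8% of those of Chrdl1. These sums hide differences between libraries. By library the endplate held 20.6%, 76.6%, 70.6% and 50.1% of Gdf10 and 32.5%, 62.0%, 39.9% and 28.1% of Chrdl1. Bone/stroma held more of Chrdl1 than the endplate in both libraries at 12–16 months, at 42.1% and 54.8%. Other cartilage held 93.0%, 83.9%, 59.5% and 50.9% of Bmp6. The bone/stroma gate, with 11.0% of the cells and 3.33e+06 of all UMIs, held 88.0% of the UMIs of Bmp4 and 64.4% of those of Fst.

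**Figure D1:**
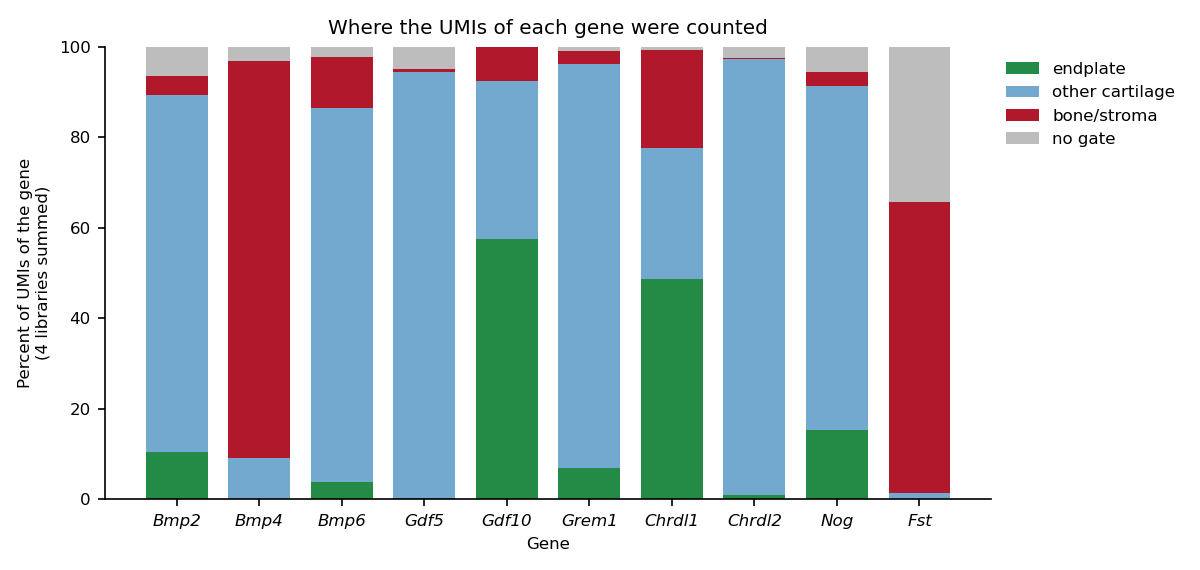
Percent of the UMIs of each gene (y axis) that were counted in the endplate, other cartilage and bone/stroma gates and in cells of no gate (colors), with the 4 libraries summed. Gdf10 and Chrdl1 have the tallest endplate segments, at 57.4% and 48.8%, while Bmp4 and Fst have none.

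Among the ligands, Bmp6 was the most abundant. BMP6 promotes bone and cartilage differentiation and, in the liver, controls hepcidin. In other cartilage Bmp6 was at 271, 339.7, 132 and 139.9 CPM. The endplate gate gave 46.8, 44.9, 0 and 4.01 CPM, and bone/stroma 105, 46.4, 121 and 281 CPM. Every library was thus lower in the endplate than in other cartilage, without overlap between the gates, while bone/stroma overlapped both. A UMI of Bmp6 was found in 66.8% of other cartilage cells, and in 32.3% after each cell was thinned to 2000 UMIs.

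Bmp2, which induces osteoblast and chondrocyte differentiation, was at 83.6, 125, 55.3 and 74.7 CPM in other cartilage. In bone/stroma it was at 27.9, 3.48, 32.4 and 18.6 CPM, below other cartilage in 4 of 4 libraries. The endplate values of 140.3, 24.8, 0 and 10.7 CPM overlapped those of both other gates, and 1 cell gave 62.1% of the endplate Bmp2 UMIs of the control library at 3 months and 1 cell 72.5% of those of the mutant library. Gdf5, a ligand of forming joints and articular cartilage, was almost confined to other cartilage, at 23.7, 11.4, 67.4 and 76.1 CPM. The endplate gate held 1 UMI of it in 222 cells, and bone/stroma 3 UMIs in 193 cells.

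Gdf10, a divergent member of the family that is also called BMP3B, had the opposite pattern. In the endplate gate it was at 51.6, 95.2, 339 and 278 CPM, against 15.2, 24.5, 40.2 and 69.5 CPM in other cartilage. The endplate was 3.40 to 8.43 times as high as other cartilage within each library, although the ranges over libraries overlapped, with the higher values at 12–16 months in both gates. Bone/stroma gave 7.60, 6.96, 9.85 and 61.9 CPM.

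Bmp4, a ligand needed for bone and marrow stroma development, was a bone/stroma transcript, at 64.6, 22.0, 57.7 and 37.2 CPM there. In other cartilage it was at 0.916, 0, 1.01 and 3.31 CPM, from 15 UMIs in all. No UMI of Bmp4 was found in 222 endplate cells, which allows a share of up to 1.35% of cells with a UMI, taken as 3 of 222 cells.

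Among the antagonists, Grem1 had the highest level in other cartilage in 4 of 4 libraries. Gremlin 1 binds BMP2 and BMP4. Other cartilage held 618, 194, 504 and 317 CPM of Grem1, the endplate gate 177, 93.1, 33.0 and 169 CPM, and bone/stroma 74.7, 8.12, 56.3 and 103 CPM. The endplate was lower than other cartilage in 4 of 4 libraries, at 0.0656 to 0.532 of its level, and the ranges did not overlap. Grem1 was found in 60.8% of other cartilage cells and 49.5% of endplate cells, or 36.8% and 16.7% after thinning.

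Chrdl2, a chordin-like antagonist, was at 92.4, 74.1, 134 and 75.6 CPM in other cartilage. The other gates held few UMIs of it, with 12 UMIs in the endplate gate, 11 of them from 2 cells of the control library at 3 months, and 3 UMIs in bone/stroma. Nog, which encodes noggin, an antagonist of BMP2, BMP4 and GDF5, was at 46.3, 38.2, 80.5 and 35.9 CPM in other cartilage. Endplate cells held Nog at 25.8, 31.3, 9.01 and 26.8 CPM, lower in 4 of 4 libraries and without overlap.

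Chrdl1, the other chordin-like antagonist, was counted mainly in the gates where Chrdl2 was not. The endplate gate held 168, 308, 279 and 199 CPM of Chrdl1, all above the 18.3, 144, 40.2 and 42.1 CPM of other cartilage, with ratios of 2.13 to 9.15 within a library. Bone/stroma also made it, at 88.7, 85.9, 138 and 300.3 CPM. A UMI of Chrdl1 was found in 73.0% of endplate cells and 9.11% of other cartilage cells, or 34.2% and 4.47% after thinning.

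Fst, which encodes follistatin, an antagonist of activins that also binds BMPs, was at 21.5, 56.8, 52.1 and 87.7 CPM in bone/stroma. No UMI of Fst was found in the endplate gate, and 4 UMIs were found in other cartilage, all in the control library at 3 months. Outside the gates, 1 cell with mural markers in the mutant library at 3 months held 87 UMIs of Fst, which is 60.8% of the Fst UMIs of that library. In 83 Ptprc+ cells without Sox9 or Acan, which should lack these genes, 0 to 3.61% had a UMI of a given member, and at most 2.74% after thinning, with a median of 9155 UMIs per cell. The medians were 18633 in the endplate gate, 11241 in other cartilage and 11691 in bone/stroma.

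**Figure D2:**
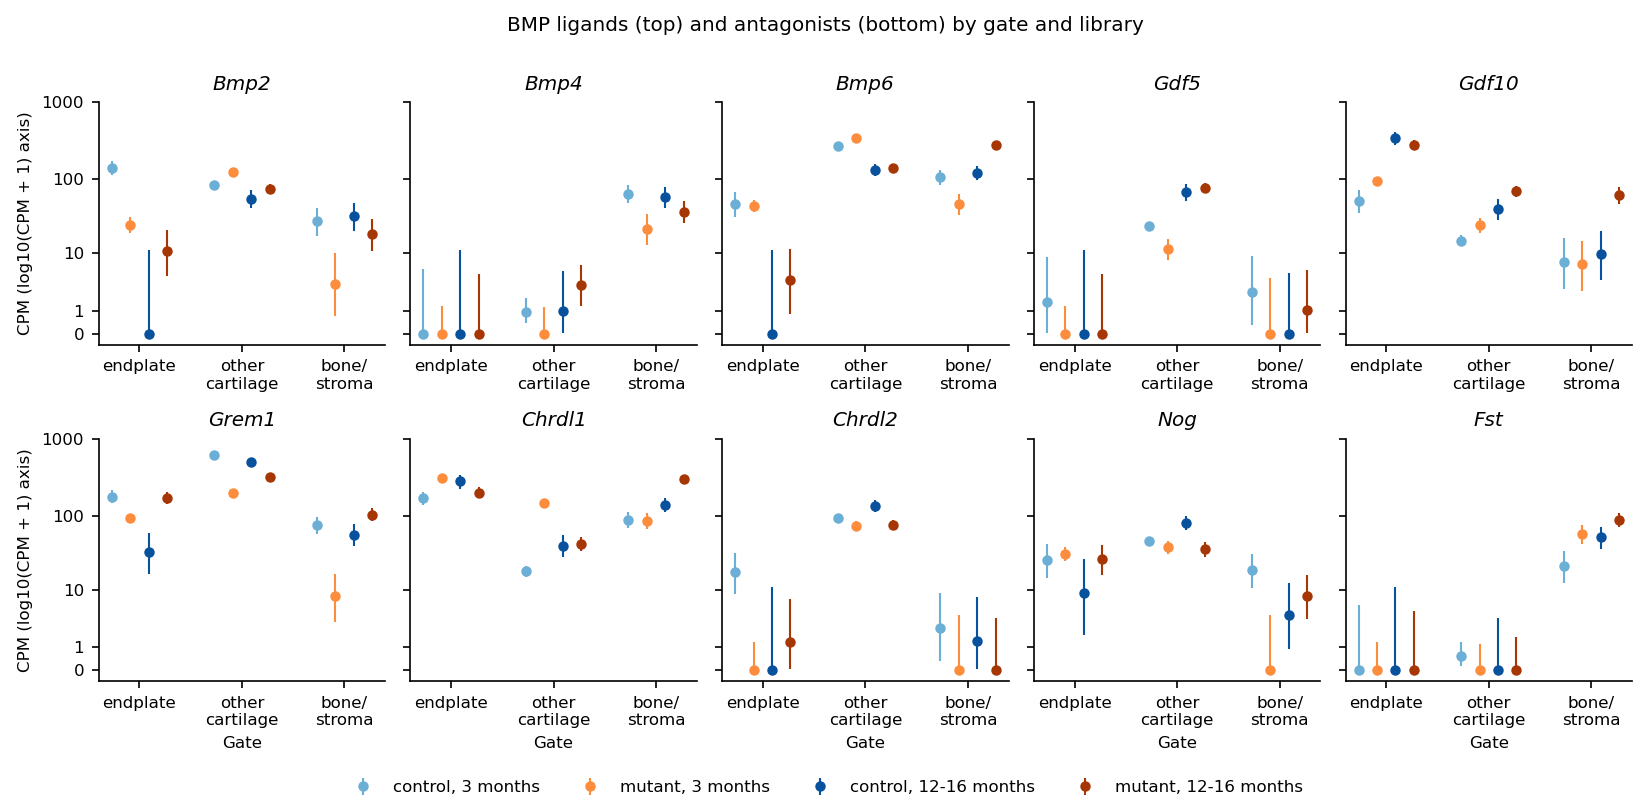
CPM of the 5 ligands (top) and the 5 antagonists (bottom) in the 3 gates, on a log10(CPM + 1) axis. Each point is 1 library (colors) and each bar its exact Poisson interval at 95%, which covers counting error only. Gdf10 sits highest in the endplate gate, Gdf5 and Chrdl2 in other cartilage, and Bmp4 and Fst in bone/stroma. Chrdl1 is higher in the endplate than in other cartilage in 4 of 4 libraries, and than in bone/stroma in 3 of 4.

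The gates were compared over the 4 libraries with edgeR's quasi-likelihood test, with the library as a block and Benjamini-Hochberg adjustment over 9828 genes. The filter on low counts keeps a gene that is high enough in a single gate. Bmp4 and Fst passed it only through bone/stroma, and Gdf5 and Chrdl2 only through other cartilage. Calls of these genes against a gate where they had few or no UMIs are descriptions, and the log2 folds there rest on counts near 0. The gates do not use the members, and the gates of a library hold different cells of the same sort. The 4 libraries serve as replicates of a gate although their conditions differ. The members, pathway lists and gate markers were chosen with earlier results of these data known. The shares over all genes are therefore given for scale, and the counts of members beside them are no test of the list. Between endplate and other cartilage, 2 members were higher in the endplate, against 8.72% of all genes tested, and 4 were lower, against 9.78%. Gdf10 was higher by 2.07 on the log2 scale (SE 0.34, adjusted p = 0.00258), and Chrdl1 by 2.03 (SE 0.51, adjusted p = 0.0211). Each SE here and below is approximate, taken as the size of the log2 fold over the square root of its F statistic. The log2 fold of Gdf5 was -6.66 (SE 0.74, adjusted p = 0.000415), that of Chrdl2 -4.98 (SE 0.73, adjusted p = 0.00142), that of Bmp6 -3.29 (SE 0.78, adjusted p = 0.0162) and that of Grem1 -1.87 (SE 0.52, adjusted p = 0.0316). Bmp2 (-1.62, adjusted p = 0.173), Nog (-1.01, adjusted p = 0.214), Bmp4 (adjusted p = 0.219) and Fst (adjusted p = 0.402) did not pass. The split of all called genes, 857 higher and 961 lower, became 1199 and 699 without TMM factors, with the counts of members at 2 and 4 again. The calls of Gdf10 and Chrdl2 held without each library in turn, as did that of Gdf5 except without the mutant library at 12–16 months, where it was too low to be tested. With stricter gates Chrdl1 (1.28, adjusted p = 0.195) and Grem1 (-1.60, adjusted p = 0.0837) did not pass, and Gdf5 was again too low to be tested. Without the control library at 3 months, the control library at 12–16 months or the mutant library at 12–16 months, Chrdl1 had adjusted p = 0.136, 0.123 and 0.0648 and Grem1 0.152, 0.114 and 0.0854, and without either control library Bmp6 had 0.0617 and 0.0660. Endplate cells were deeper than other cartilage cells, and the part of depth in these differences was not tested beyond the thinned shares above.

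Against bone/stroma, 1 member was higher in the endplate (15.5% of all genes) and 3 were lower (14.2%). Gdf10 was higher by 3.29 on the log2 scale (SE 0.39, adjusted p = 0.000162). Bmp4 (adjusted p = 0.00105), Fst (adjusted p = 0.000527) and Bmp6 (-2.63, SE 0.84, adjusted p = 0.0375) were lower. Bmp4 and Fst were at 0 UMIs in the endplate in all 4 libraries, and passed the filter on low counts only through bone/stroma. The call of Bmp6 was lost without the control library at 3 months, the control library at 12–16 months or the mutant library at 12–16 months (adjusted p = 0.0647, 0.145 and 0.170). For Chrdl1 the difference was 0.64 (SE 0.50, adjusted p = 0.376), so a difference between endplate and bone/stroma was not detectable. Nog (1.81, adjusted p = 0.0677) and Grem1 (1.19, adjusted p = 0.125) did not pass, though Nog was higher in the endplate in 4 of 4 libraries. Bmp2, Gdf5 and Chrdl2 did not pass either. In place of 1 member, 3 were higher in the endplate with no filter on low counts, and 2 with DESeq2 or without the control library at 3 months.

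Between other cartilage and bone/stroma, 6 members were higher in other cartilage (18.7% of all genes) and 2 were lower (15.0%). The higher ones were Chrdl2 (log2 fold 6.85, adjusted p = 0.000206), Gdf5 (5.62, adjusted p = 9.59e-05), Grem1 (3.06, adjusted p = 0.00155), Nog (2.82, adjusted p = 0.00524), Bmp2 (2.33, adjusted p = 0.0453) and Gdf10 (1.22, adjusted p = 0.0339). Fst (-6.81, adjusted p = 0.000209) and Bmp4 (-5.09, adjusted p = 0.000696) were lower. Here too, Chrdl2 and Gdf5 passed the filter on low counts only through other cartilage, and Fst and Bmp4 only through bone/stroma. Without library blocks 6 of these 8 calls were made, since Bmp2 had adjusted p = 0.0506 and Gdf10 0.380. Of all genes, 1833 were called higher and 1477 lower, and 1387 and 2077 without TMM factors, where Bmp2 (adjusted p = 0.0535) and Gdf10 (0.0865) were lost and Chrdl1 (log2 fold -1.60, adjusted p = 0.0332) was gained as lower. Bmp2 was lost without 3 of the libraries (adjusted p = 0.0725 without the control library at 3 months, 0.113 and 0.150 without the mutant libraries at 3 and 12–16 months), and Gdf10 without 3 (adjusted p = 0.0948 without the control library at 3 months, 0.117 without the mutant library at 3 months and 0.0555 without the control library at 12–16 months). Without cells with markers of other types Gdf10 did not pass (0.67, adjusted p = 0.164), and Bmp2 did not with stricter gates (adjusted p = 0.0661) or without doublets (0.0750). Chrdl1 (-1.39, adjusted p = 0.0656) passed as lower without the mutant library at 3 months (-2.24, adjusted p = 0.000184), without cells with markers of other types (0.000638), with no filter on low counts (0.00148) and with DESeq2 (0.0214), as well as without TMM factors.

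Finer subsets set members of 1 gate apart. None of their markers is a member, the values sum all libraries, and no test was made. A subset named by several markers needs at least 3 UMIs summed over them, so its cells need not hold each marker. Meox2+ cells need at least 1 UMI and Cxcl12-rich cells at least 5. Among endplate cells, 145 with hypertrophic markers (Col10a1, Ihh, Prkg2) held 169 CPM of Gdf10 and 323 CPM of Chrdl1, against 40.2 and 99.6 CPM in the 77 cells without. Grem1 had the reverse order, at 87.9 CPM with and 190.0 CPM without these markers, in 3 of 4 libraries, the exception being the control library at 12–16 months with 2 cells without them (34.9 and 21.7 CPM). All but 6 of the 164 endplate UMIs of Bmp2 were in the hypertrophic cells, but most of them came from 1 cell of each library at 3 months. Without that cell, 33 of 87 endplate UMIs were left in the control library and 19 of 69 in the mutant library. Within other cartilage, Grem1 summed to 714 CPM in 164 Meox2+ cells, 543 CPM in the 913 cells with Prg4, Smoc2 or Cilp2 and 300.3 CPM in the 289 cells with Sfrp5 or Adamtsl2. That order was found in 3 of 4 libraries, and the control library at 12–16 months had the reverse, at 524, 551 and 592 CPM. Nog had another order in 4 of 4 libraries, with 94.8 CPM in the Sfrp5 and Adamtsl2 cells, 40.7 CPM in the Prg4 cells and 22.3 CPM in the Meox2+ cells. Gdf5 had the order of Nog in 4 of 4 libraries, at 66.2, 36.8 and 26.0 CPM. These 3 subsets overlap in cells, and the 913 cells with Prg4, Smoc2 or Cilp2 were most of the 1065 cells of the gate. The 110 other cartilage cells outside them held 362 CPM of Chrdl1, 147 CPM of Gdf10 and 81.0 CPM of Grem1, while Chrdl1 was at 4.29 to 5.04 CPM in the 3 subsets.

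The bone/stroma gate was divided by markers too. In 95 Cxcl12-rich cells, the stromal cells of the marrow, Chrdl1 was at 430 CPM, Bmp6 at 382 CPM, Grem1 at 165 CPM and Fst at 145 CPM. In 53 other cells with Alpl, Ibsp or Sp7, markers of the osteoblast line, Bmp2 was at 39.9 CPM, while Grem1 had 0 UMIs and Chrdl1 1 UMI. Bmp4 was found in both subsets, with no common order, at 100.4, 218, 41.6 and 15.4 CPM by library in the osteoblast-line cells, where the second value rests on 9 UMIs and the last on 5, and at 32.4, 67.9, 114 and 58.7 CPM in the Cxcl12-rich cells. The other 45 cells held at most 2 UMIs of any member.

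**Figure D3:**
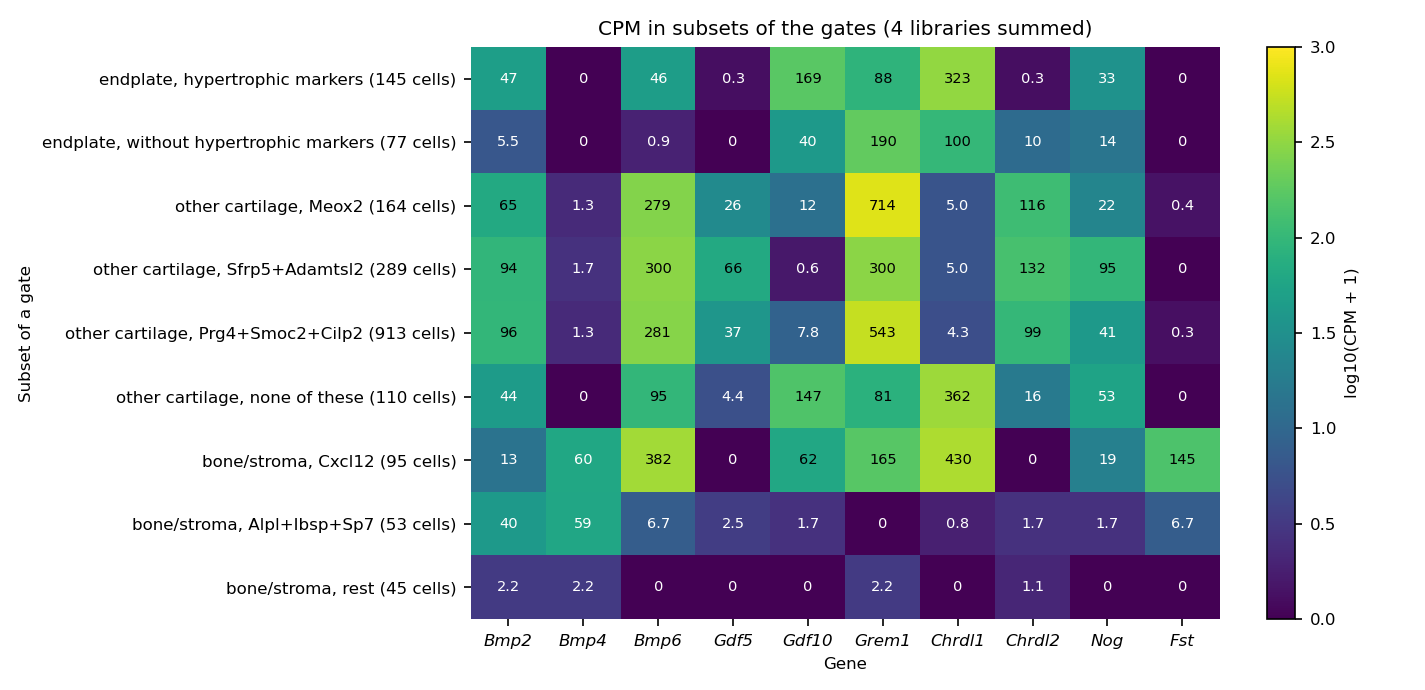
CPM of each member (columns) in 9 subsets of the 3 gates (rows), with the 4 libraries summed, colors on a log10(CPM + 1) scale and the CPM written in each field. The hypertrophic endplate cells, the other cartilage cells with none of the subset markers and the Cxcl12-rich stroma are the rows with high Chrdl1, at 323, 362 and 430 CPM.

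Ligand and antagonist were also looked for in the same cell after thinning, as a description. Among 92 Cxcl12-rich cells, Chrdl1 was found in 57.8% of the 45 cells with Bmp6 and in 12.8% of the 47 without. The share was higher in the Bmp6+ cells of 4 of 4 libraries, but from few cells in most. By library it was 4 of 9 against 1 of 13 cells, 3 of 4 against 1 of 6, 1 of 3 against 1 of 8 and 18 of 29 against 3 of 20. Fst was found in 37.8% and 14.9% of the same cells, of which 49 were from the mutant library at 12–16 months. In the control library at 3 months it was found in 0 of 9 and 0 of 13 cells. Among 1051 other cartilage cells, Grem1 was found in 37.8% of the cells with Bmp2 and in 36.7% of those without. With Gdf5 the order was reversed, since Grem1 was found in 20.7% of the 58 cells with Gdf5 and in 37.8% of the 993 without. In the mutant library at 12–16 months those shares were 32.1% and 31.0%.

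Next, the libraries labelled mutant and control were compared at 3 months. A gene was counted as apart where the CPM differed at least 2-fold with 20 UMIs or more over both libraries. Such counts compare 2 libraries, with no test, and intervals cover counting error only. Over all passing cells, 3 members were higher in the mutant library (14.6% of 14559 genes were), and 3 were lower (5.44% of genes were). Chrdl1 was at 33.9 CPM in the control and 189 CPM in the mutant library (ratio 5.58, interval 4.94 to 6.33), and Gdf10 at 16.4 and 47.5 CPM (ratio 2.89, 2.38 to 3.51). Fst was at 2.76 and 19.6 CPM (ratio 7.12), or 3.15 times as high without its highest cell. Grem1 was lower, at 523 and 118 CPM (ratio 0.226, 0.210 to 0.243), as were Gdf5 at 20.8 and 5.35 CPM (ratio 0.257) and Chrdl2 at 77.5 and 32.1 CPM (ratio 0.414).

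The mix of cells moved with these ratios, since endplate cells were 4.18% of the control and 29.3% of the mutant library at 3 months, and other cartilage cells 74.2% and 48.6%. In such sums more cells of a type and more RNA per cell cannot be told apart. With the gates weighted equally, Chrdl1 was 1.96 times as high in the mutant library, Gdf10 1.70 times and Fst 2.58 times, and the ratios of Grem1, Gdf5 and Chrdl2 were 0.339, 0.411 and 0.658. Then 4 members were 2-fold apart in place of 6, Bmp4 (ratio 0.336) among them. Each cell type was therefore compared on its own.

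In other cartilage at 3 months, 1 member was higher in the mutant library (4.68% of genes) and 2 were lower (5.22% of genes). Grem1 was at 618 CPM in control and 194 CPM in mutant cells (ratio 0.314, 0.288 to 0.342). Its ratio was 0.468 in the Meox2+ cells, 0.206 in the Sfrp5 and Adamtsl2 cells and 0.359 in the Prg4, Smoc2 and Cilp2 cells, all lower, and 0.802 (0.530 to 1.22) in the cells outside them. Gdf5 was at 23.7 and 11.4 CPM (ratio 0.483). Chrdl1 was at 18.3 and 144 CPM (ratio 7.88, 6.50 to 9.60). Of its UMIs, 113 of 140 in the control and 438 of 442 in the mutant library lay in the 35 and 44 cells outside the 3 subsets, where Chrdl1 was at 212 and 548 CPM (ratio 2.59, 2.10 to 3.21). Bmp2 (ratio 1.49), Bmp6 (1.25) and Gdf10 (1.61) were above 1 by less than 2-fold, and Chrdl2 (0.802) and Nog (0.825) below 1. Bmp4 and Fst had fewer than 20 UMIs.

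In the endplate gate at 3 months no member was 2-fold higher in the mutant library (10.8% of genes were), and 1 was lower (6.07% of genes were). The lower one was Bmp2, at 140.3 and 24.8 CPM (ratio 0.177), with most UMIs of each library in 1 cell. Without the highest cell of each library, the ratio was 0.121. Chrdl1, at 168 and 308 CPM (ratio 1.83, 1.49 to 2.27), and Gdf10, at 51.6 and 95.2 CPM (ratio 1.85, 1.28 to 2.75), were higher by less than 2-fold. Grem1 was lower, at 177 and 93.1 CPM (ratio 0.525, 0.418 to 0.662). In the hypertrophic endplate cells the ratio of Grem1 was 0.959 (0.645 to 1.47), with 14 control and 90 mutant cells, and in the others it was 0.424 (0.314 to 0.573). The other 4 members had fewer than 20 UMIs, among them Chrdl2 with 11 in control and 0 in mutant cells. Bmp6 was nearly equal at 46.8 and 44.9 CPM, and Nog differed less than its counting error (ratio 1.21, 0.706 to 2.21).

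In bone/stroma at 3 months, 1 member was higher in the mutant library (23.9% of genes) and 4 were lower (12.2% of genes), in a gate where hematopoietic markers were at 1.27 CPM in control and 910 CPM in mutant cells. Bmp2 (ratio 0.125, from 22 and 3 UMIs), Bmp4 (0.341), Bmp6 (0.441) and Grem1 (0.109) were lower and Fst was higher (2.64). Nog, with 15 UMIs in control and 0 in mutant cells, was below the minimum of 20 UMIs, as were Gdf5, Gdf10 and Chrdl2. Without cells with markers of other types, Bmp4 and Bmp6 were higher in the mutant library instead, at ratios of 1.56 and 2.13, Grem1 was at 0.524, Chrdl1 at 4.67 and Fst at 13.5. The Cxcl12-rich cells alone, 22 control and 11 mutant, gave ratios of 0.359 for Grem1, 1.33 for Bmp6 (0.871 to 1.99), 3.24 for Chrdl1 and 11.4 for Fst. Grem1 was thus lower in the mutant library at 3 months in each of the 3 gates, at ratios of 0.525 in the endplate, 0.314 in other cartilage and 0.109 in bone/stroma.

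At 12–16 months no member was 2-fold apart over all passing cells, while 7.67% of 12939 genes were higher and 3.41% lower. The ratios ran from 0.501 for Bmp4, with 43 UMIs in mutant and 42 in control cells, to 1.29 for Bmp6. The mix of gates was closer at this age, with 8.89% and 9.03% endplate cells and 57.8% and 52.3% other cartilage cells. In other cartilage no member was higher (4.68% of genes were), and Nog was lower (4.03% of genes were), at 80.5 and 35.9 CPM (ratio 0.446, 0.322 to 0.619). The ratio of Nog was 0.304 in the Sfrp5 and Adamtsl2 cells and 0.397 in the Prg4, Smoc2 and Cilp2 cells. Grem1 (ratio 0.628, 0.559 to 0.707) and Chrdl2 (0.565, 0.446 to 0.717) were also below 1 there, and Chrdl1 was at 40.2 and 42.1 CPM. Grem1 differed between subsets, at ratios of 0.371 in the Sfrp5 and Adamtsl2 cells, 0.663 in the Prg4, Smoc2 and Cilp2 cells, 1.30 (1.04 to 1.62) in the Meox2+ cells and 4.78 (1.25 to 40.6) in the cells outside them, from 2 control and 46 mutant UMIs.

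In the endplate gate at 12–16 months, with 12 control and 38 mutant cells, 2 members were higher in the mutant library (9.35% of genes) and none lower (5.49% of genes). Grem1 was at 33.0 and 169 CPM (ratio 5.10, 2.76 to 10.5). Nog was at 9.01 and 26.8 CPM, from 3 and 20 UMIs, and its interval of 0.881 to 15.6 includes 1. In bone/stroma 3 members were higher (14.9% of genes) and none lower (3.36% of genes), namely Gdf10 (ratio 6.28, 2.87 to 16.3), Bmp6 (2.32, 1.81 to 2.99) and Chrdl1 (2.18, 1.73 to 2.77). Within the Cxcl12-rich cells, which were 11 of 26 control and 51 of 83 mutant cells of that gate, the ratios were 3.78 for Gdf10, 1.20 for Bmp6 (0.938 to 1.55) and 1.12 for Chrdl1 (0.890 to 1.43).

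**Figure D4:**
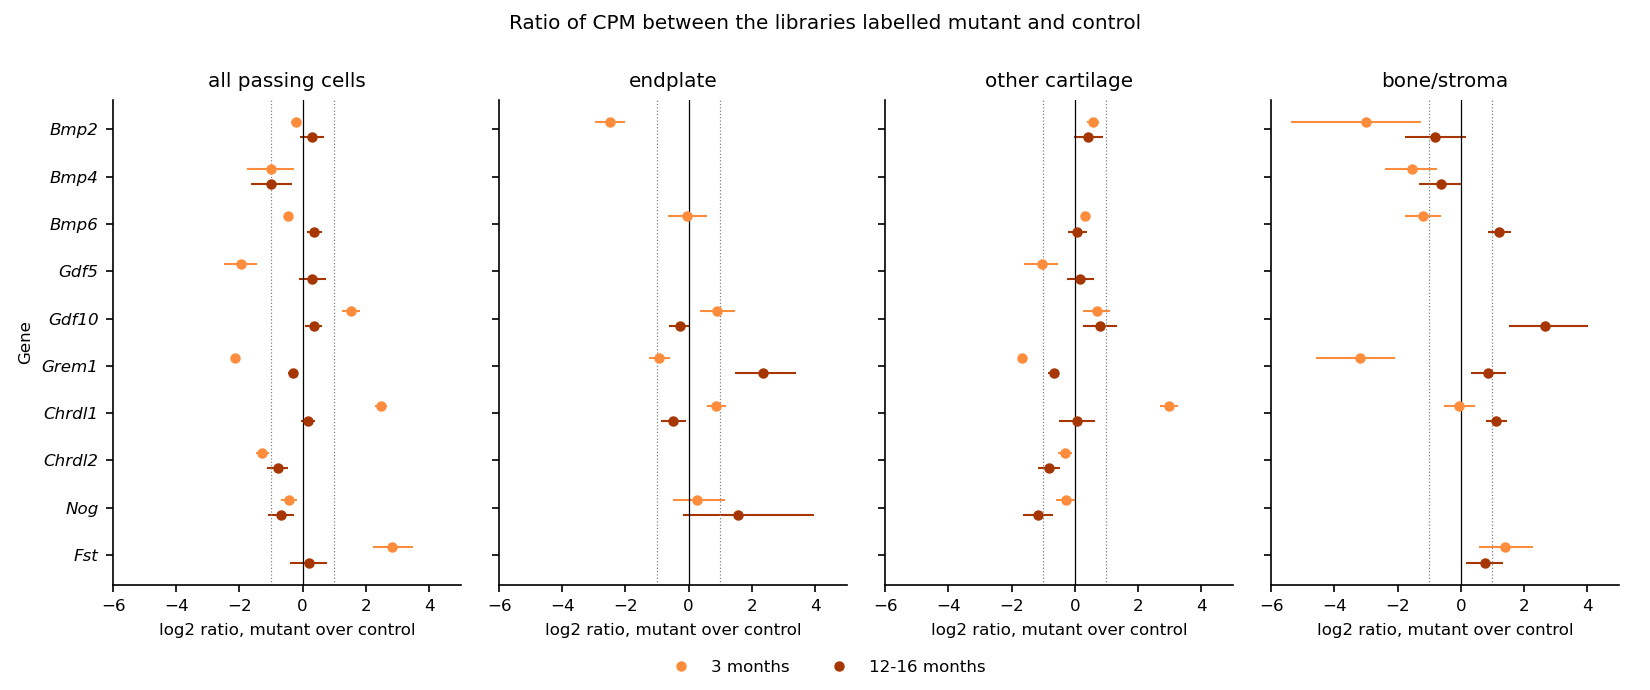
Log2 ratio of CPM between the libraries labelled mutant and control (x axis) for each member (y axis), at 3 months and at 12–16 months (colors), in all passing cells and in each gate. Bars are exact intervals at 95% for counting error, dotted lines mark 2-fold, and members with fewer than 20 UMIs are left out. In the other cartilage panel at 3 months Grem1 lies farthest left (ratio 0.314) and Chrdl1 farthest right (7.88), while at 12–16 months only Nog crosses a dotted line (0.446).

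Age was compared within each label, again between 2 libraries, and these comparisons share libraries with those above. In the control libraries over all passing cells, 4 members were higher at 12–16 months (10.3% of genes) and 3 were lower (4.79% of genes). Bmp4 (ratio 3.12), Gdf10 (4.52), Chrdl1 (3.19) and Fst (6.23) were higher, and Bmp2 (0.462), Bmp6 (0.432) and Grem1 (0.497) were lower. The mix of cells moved with age as well, since bone/stroma cells were 6.28% of the control library at 3 months and 19.3% at 12–16 months. With equal gate weights the control ratios were 0.896 for Bmp4, 5.24 for Gdf10, 1.67 for Chrdl1, 2.36 for Fst, 0.348 for Bmp2 and 0.597 for Bmp6. Grem1 was then no longer 2-fold lower, and Gdf5 was 2-fold higher, at 2.42. In the mutant libraries Bmp4 (3.10) and Gdf5 (7.18) were higher (7.15% of genes) and none was 2-fold lower (5.53% of genes). With equal gate weights these 2 ratios were 1.84 and 6.75.

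Within other cartilage the ages differed in several members under both labels. In control cells 3 members were higher at 12–16 months (6.09% of genes) and 1 was lower (5.50% of genes), and in mutant cells 2 were higher (4.03% of genes) and 2 lower (3.87% of genes). Bmp6 was lower with age under both labels, at ratios of 0.486 in control and 0.412 in mutant cells. Gdf5 was higher, at 2.85 and 6.66, and Gdf10 at 2.65 and 2.84. Without the highest cell of each library, the control ratio was 1.80 for Gdf5 and 1.30 for Gdf10, and the mutant ratios were 6.73 and 2.66. In the control library at 12–16 months 36 of the 40 Gdf10 UMIs, and 36 of the 40 Chrdl1 UMIs, lay in the 5 cells outside the subsets. In the Prg4, Smoc2 and Cilp2 cells the control ratio of Gdf10 was 0.759 (0.197 to 2.10), from 40 UMIs at 3 months and 4 at 12–16 months. Chrdl1 went from 18.3 to 40.2 CPM in control cells (ratio 2.20, or 1.37 without the highest cells) and from 144 to 42.1 CPM in mutant cells (ratio 0.291), and the mutant to control ratio at 12–16 months was 1.05 (0.712 to 1.56). Grem1 went from 618 to 504 CPM in control and from 194 to 317 CPM in mutant cells, and the difference between labels was smaller at the later age, which was not tested.

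In the endplate gate 1 member was higher (7.25% of genes) and 3 were lower (10.1% of genes) at 12–16 months in control cells, and 1 was higher (7.77% of genes) and 2 were lower (9.03% of genes) in mutant cells. Gdf10 was the higher one under both labels, at ratios of 6.58 (4.41 to 10.1) and 2.92 (2.43 to 3.52). Bmp6 was lower under both, at 46.8 and 0 CPM in control cells (5.19-fold lower with 3 counts in place of 0) and at 44.9 and 4.01 CPM in mutant cells. Bmp2 was lower under both too, at 140.3 and 0 CPM (15.6-fold lower against 3 counts) and at 24.8 and 10.7 CPM (ratio 0.432). Much of the endplate Bmp2 at 3 months came from 1 cell of each library. Without the cell with most Bmp2 UMIs of each library, Bmp2 was at 57.3 and 0 CPM in control cells (5.55-fold lower against 3 counts). In mutant cells it was then at 6.92 and 5.53 CPM, which is no longer 2-fold apart, and with each cell weighted equally the mutant ratio was 1.44. For Bmp6 in control cells the fold against 3 counts became 3.18 without its highest cell. These folds cover the counting of UMIs only and are not bounds over cells. At 3 months 23.3% of 30 control endplate cells had a UMI of Bmp6 and 26.7% one of Bmp2. At 12–16 months 0 of 12 cells had one, which allows a share of up to 25% of cells, or 26.5% by the exact interval. The third lower member in control cells was Grem1 (ratio 0.186, from 11 UMIs at 12–16 months), which was at 1.81 in mutant cells. In the hypertrophic endplate cells alone its ratios were 0.455 (0.199 to 0.957) in control and 2.22 (1.72 to 2.87) in mutant cells. In bone/stroma, 1 member was higher in control cells at 12–16 months (5.52% of genes), Fst (ratio 2.42), and none lower (6.63% of genes). In mutant cells 5 were higher (17.3% of genes) and none lower (17.6% of genes), namely Bmp2 (5.34), Bmp6 (6.05), Gdf10 (8.90), Grem1 (12.7) and Chrdl1 (3.50), where hematopoietic markers were at 910 CPM at 3 months and 141 CPM at 12–16 months. Without cells with markers of other types these ratios were 1.14, 1.37, 2.01, 2.87 and 0.789.

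The rest of the pathway was taken from lists of 11 other ligands, 11 other antagonists and binding proteins, 8 receptors, 4 SMADs and 7 response genes, of which the 3 with most UMIs are named. Response genes are read here only as transcripts, since no signaling was measured. Of the response genes, 5 of 7 were at least 2-fold lower in the mutant library at 3 months over all passing cells (5.44% of genes were) and none was higher (14.6% of genes were). Their median log2 ratio was -1.26 against 0.19 over all genes. Id3 was at 686 and 229 CPM (ratio 0.334), Id1 at 545 and 222 CPM (ratio 0.408) and Id2 at 318 and 133 CPM (ratio 0.419). The other 2, Id4 (0.414) and Bambi (0.430), were named after their values were seen. In other cartilage 1 of 7 was 2-fold lower (Id3, ratio 0.406), where 5.22% of all genes were, with a median of -0.75. Of the 7, 5 had a ratio below 1 there and 2 above 1. In the endplate 4 of 7 were, against 6.07% of all genes, with a median of -1.04, among them Id1 at 616 and 192 CPM (ratio 0.312). In bone/stroma 4 of 7 were lower, where 12.2% of all genes were, with a median of -1.10, and hematopoietic markers were at 1.27 CPM in control and 910 CPM in mutant cells of that gate. The medians of all genes were 0.03 in the endplate, -0.00 in other cartilage and 0.31 in bone/stroma. At 12–16 months none of the 7 was 2-fold apart over all passing cells (7.67% of genes were higher and 3.41% lower), and the median log2 ratio was -0.08 against 0.11.

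Between gates, 5 of 7 response genes were lower in the endplate than in other cartilage by the edgeR test (9.78% of all genes), among them Id3 (log2 fold -1.58, adjusted p = 0.00515) and Id1 (-0.73, adjusted p = 0.0458). None was higher (8.72% of all genes). Against bone/stroma, 2 of 7 were higher in the endplate (15.5% of all genes) and 4 were lower (14.2%). In other cartilage 3 were higher (18.7% of all genes) and 1 was lower (15.0%). Id1 was higher in both cartilage gates than in bone/stroma, by 3.26 in the endplate (adjusted p = 1.06e-05) and 3.99 in other cartilage (adjusted p = 4.11e-06). So was Id2, by 2.25 (adjusted p = 0.00143) and 3.16 (adjusted p = 0.000135). Id3 was lower in the endplate than in bone/stroma (-1.15, adjusted p = 0.0137) and was not called in other cartilage (0.42, adjusted p = 0.292).

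**Figure D5:**
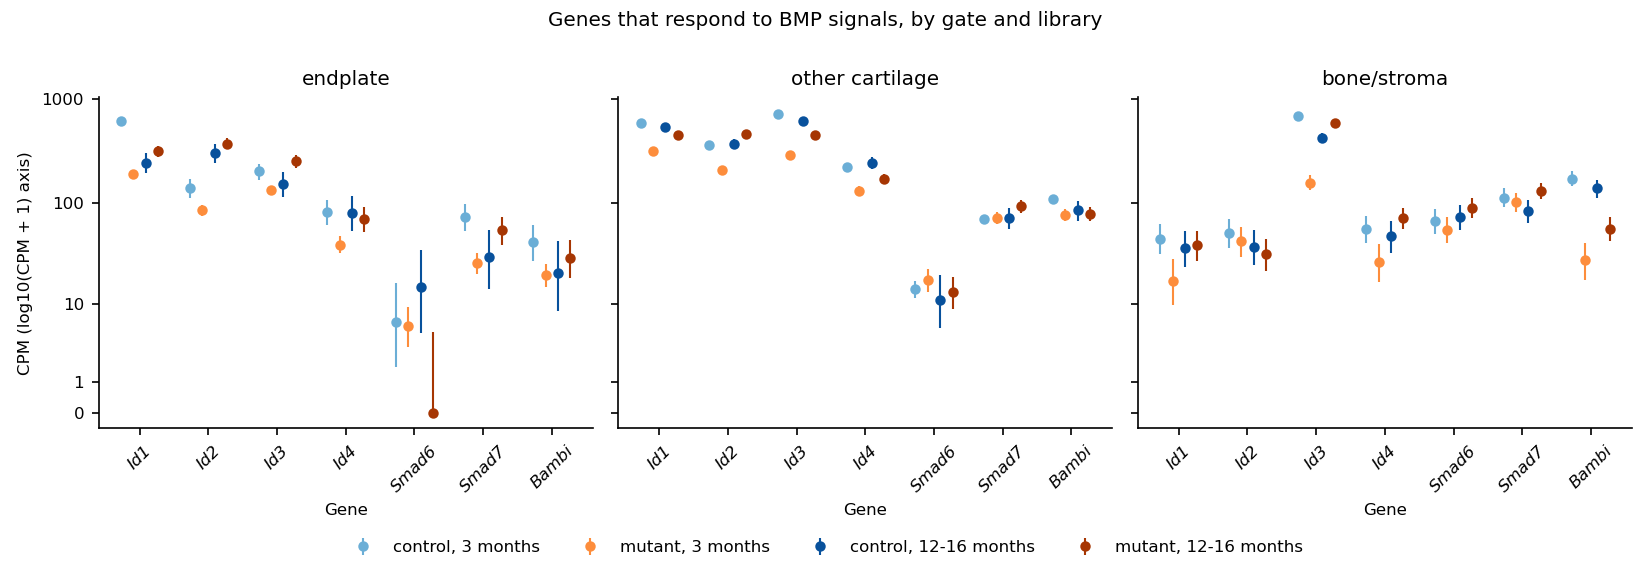
CPM of 7 genes that respond to BMP signals, on a log10(CPM + 1) axis, in the 3 gates. Each point is 1 library (colors) and each bar its exact Poisson interval at 95%. In other cartilage Id1, Id2, Id3 and Id4 are lowest in the mutant library at 3 months, Id3 at 294 CPM against 455 to 725 CPM in the others. Against the control library of the same age, 5 of the 7 genes are lower there and 2 are higher.

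Of the other ligands, 8 of 11 had enough UMIs for the comparison at 3 months over all passing cells, 3 of them higher (14.6% of genes) and 2 lower (5.44% of genes). Inhba, which encodes an activin subunit, was lower, at 103 and 16.9 CPM (ratio 0.164), and was an other cartilage transcript, with a log2 fold of -6.19 in the endplate against other cartilage (adjusted p = 0.000221). Bmp8a was at 18.6 and 44.6 CPM (ratio 2.40). In other cartilage it was at 5.89 and 34.9 CPM at 3 months (ratio 5.93, 4.15 to 8.60) and at 2.01 and 26.5 CPM at 12–16 months, from 2 and 56 UMIs (ratio 13.2, 3.48 to 111). In bone/stroma it was lower at 3 months (ratio 0.445) and at 0.654 at 12–16 months. Bmp3, a ligand that dampens BMP signals in bone, was the only gene of the lists with at least 100 UMIs that was 2-fold apart at both ages over all passing cells, higher at 3 months (ratio 2.19) and lower at 12–16 months (ratio 0.364). At 3 months it was 2-fold higher in no gate, with ratios of 1.30 in the endplate, 1.12 in other cartilage and 0.103 in bone/stroma, beside the 4.18% and 29.3% of endplate cells. Bmp3 was higher in the endplate than in other cartilage by 3.42 on the log2 scale (adjusted p = 0.0205), and its log2 fold in other cartilage against bone/stroma was -4.48 (adjusted p = 0.00308).

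Among other antagonists and binding proteins, 10 of 11 could be compared at 3 months over all passing cells, with 2 higher (14.6% of genes) and 1 lower (5.44% of genes). Rgma, a membrane-tethered BMP co-receptor, was at 36.3 and 201 CPM (ratio 5.54), at 121 and 411 CPM in the endplate (ratio 3.40) and at 33.6 and 99.9 CPM in other cartilage (ratio 2.97). The call of Rgma between gates was also to the endplate side, by 1.79 over other cartilage (adjusted p = 0.00244). Twsg1 (ratio 0.881) and Fstl1 (0.819) were less than 2-fold apart. None of the 8 receptors and none of the 4 SMADs was 2-fold apart at 3 months over all passing cells, and Bmpr2 (ratio 1.07), Bmpr1a (1.31), Acvr1 (1.18), Smad4 (1.30), Smad5 (1.24) and Smad1 (1.27) were all within 1.5-fold in that sum. By gate, 1 of 4 SMADs was higher in the endplate (10.8% of genes). In bone/stroma 1 of 5 receptors was higher (23.9% of genes), and 2 of 5 receptors and 1 of 3 SMADs were lower (12.2% of genes). At 12–16 months over all passing cells 1 receptor was higher (7.67% of genes), and 1 receptor and 1 other ligand were lower (3.41% of genes).

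The genes whose levels followed each member most closely were taken over the 12 sums of library and gate, among 11446 genes with at least 100 UMIs in gated cells, by Pearson's r of log2(CPM + 10). The 12 sums come from 4 libraries and 3 gates and are not independent, and the values are a description. They were Fbn1 for Bmp6 (r = 0.98), Srgap1 for Bmp4 (0.99), Ypel5 for Bmp2 (0.92), Fam25c for Gdf5 (0.98) and Carf for Gdf10 (0.95). For the antagonists they were Sdf4 for Grem1 (0.95), Chd6 for Chrdl1 (0.95), Radil for Chrdl2 (0.99), Uaca for Nog (0.95) and Ifitm1 for Fst (0.99). Gdf6, another ligand of the joint, was the second closest gene to Gdf5 (0.98). Among members, Grem1 and Nog (0.90), Gdf5 and Chrdl2 (0.90) and Bmp4 and Fst (0.89) were the closest pairs, and Nog and Fst (-0.77) and Gdf5 and Chrdl1 (-0.77) the most opposed.

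In the genome (GRCm38) Grem1, Bmp2 and Gdf5 lie on chromosome 2, at 113746164 to 113758646, 133552159 to 133562885 and 155941023 to 155945367. Bmp4 (46383520 to 46390669) and Gdf10 (33923587 to 33937983) lie on chromosome 14, and Bmp6 (38345107 to 38500302) and Fst (114452290 to 114458951) on chromosome 13. Nog lies on chromosome 11 (89300638 to 89302332), Chrdl2 on chromosome 7 (100006172 to 100034728) and Chrdl1 on the X chromosome (143285674 to 143394262). The placement of Chrdl1 on X is given because the mutant library at 3 months, where Chrdl1 was highest in both cartilage gates, was also the one with the highest Xist, and the part of sex in that value was not tested.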

How the data were processed

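Vertebral tdTom+ cells were sequenced with 10x 3′ chemistry in 4 libraries, 1 per condition. The deposited values are raw UMI counts per gene and barcode, which the authors made with Cell Ranger 8.0.0 on mm10 with a tdTomato sequence added. Ambient correction and integration, which the authors ran later, were not repeated. Cells with over 750 UMIs, over 500 genes and under 7% mitochondrial counts were kept, gated by markers, and summed per library and gate. Scrublet doublets (2 to 9 cells per library) were kept, and a run without them is given below. CPM carries exact Poisson intervals, ratios exact conditional binomial intervals and shares Clopper-Pearson intervals, all at 95% and for counting error only, and the limit beside a count of 0 is 3 counts. Library comparisons had no replicate and no test. Gates were tested on 12 sums with edgeR 4.0.16 quasi-likelihood (R 4.3.3), TMM factors, filterByExpr and the library as a block, since the gates of a library come from the same sort; adjusted p-values are Benjamini-Hochberg, called below 0.05. The same library number pairs gates by construction. DESeq2 1.42.0 was an alternative. Shares were also taken after thinning to 2000 UMIs, which left out 0 endplate, 14 other cartilage and 7 bone/stroma cells. The edgeR test was also run on simulated counts, with 1 dispersion for all genes and no difference between libraries beyond depth. The real libraries differ in condition, so that run does not show how the calls hold here. Python 3.11.15, numpy 2.4.6, scipy 1.17.1, pandas 2.3.3, scanpy 1.11.5 and matplotlib 3.10.9 were used. The members, pathway lists and markers were chosen with earlier results of these data known. Genes named beside the members are the 3 with most UMIs in each list, genes with at least 100 UMIs that were 2-fold apart at both ages, and the closest genes by correlation.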

Additional observations from a re-analysis of the deposited data

Results flagged for a closer look

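For 3 members, mutant over control ratios lay on opposite sides of 1 at the 2 ages with intervals that both exclude 1, which cover counting error only. The difference between ages was not tested, since each condition was 1 library. Over all passing cells Bmp6 was at 0.719 at 3 months and 1.29 at 12–16 months. The mix of gates differed between the 3-month libraries, with 4.18% endplate cells in control and 29.3% in mutant. With the gates weighted equally the Bmp6 ratio at 3 months was 1.02, and in other cartilage alone it was above 1 (log2 ratio 0.32). In the endplate gate Grem1 was at 0.525 and 5.10, and Chrdl1 at 1.83 and 0.714. In the hypertrophic endplate cells the Grem1 ratios were 0.959 (0.645 to 1.47) and 4.69 (2.45 to 10.1), so the interval at 3 months includes 1 there. These cells were 14 of 30 control and 90 of 142 mutant endplate cells at 3 months. At 12–16 months they were 10 of 12 and 31 of 38. Without the cell with most Chrdl1 UMIs of each library, Chrdl1 at 12–16 months was at 187 CPM in control and 184 CPM in mutant endplate cells. Over the recomputed alternatives its ratio at that age ran from 0.628 to 1.29, on both sides of 1. In bone/stroma Bmp6 was at 0.441 and 2.32, and Grem1 at 0.109 and 1.83. In that gate hematopoietic markers were at 1.27 CPM in control and 910 CPM in mutant cells at 3 months. Without cells with markers of other types the ratios of Bmp6 were 2.13 and 3.61, both above 1, and those of Grem1 0.524 and 5.12. In the Cxcl12-rich cells Bmp6 was at 1.33 and 1.20 and Grem1 at 0.359 and 0.995.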

How the results depend on the processing

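Of 76 recomputed counts of members 66 stayed within 1.5 times. Of 865 recomputed ratios 718 stayed within their counting interval, 141 left it and 6 turned. Only ratios at least 2-fold apart as first computed were counted as turned. Smaller ratios that changed to the other side of 1 are among the 718 and the 141. At 12–16 months, 0 members were 2-fold apart between labels, 1 without Scrublet doublets, 1 with TMM factors and 3 at 1.5-fold. With age, 7 members were apart in control and 4 with equal gate weights, and 2 in mutant libraries, 4 without the cell with most UMIs of each member (added after seeing the data) and 6 at 1.5-fold. In bone/stroma at 3 months the log2 ratio turned to 0.64 for Bmp4 and 1.09 for Bmp6 without cells with markers of other types, and to 0.093 for Bmp6 with each cell weighted equally. With age, it turned to -0.16 for Bmp4 in control libraries with equal gate weights, to 0.52 for Bmp2 in mutant endplate cells with each cell weighted equally and to -0.34 for Chrdl1 in mutant bone/stroma without cells with markers of other types, in alternatives added after seeing the data. These causes were not tested.

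Between endplate and other cartilage 6 members were called, 3 with stricter gates, and 3 to 6 without 1 library (3 without the control library of either age or the mutant library at 12–16 months). Gdf5 was removed by the filter on low counts, and so not tested, with stricter gates, without cells with markers of other types and without the mutant library at 12–16 months. Against bone/stroma the counts without 1 library were 3 to 4 for the endplate and 6 to 7 for other cartilage. In edgeR's test without 1 library the log2 fold of Fst between endplate and other cartilage ran from -3.00 to 0.11, that of Bmp2 between endplate and bone/stroma from -0.34 to 1.499 and that of Chrdl2 from -0.17 to 2.38. All 3 changed sign without the control library at 3 months, and with DESeq2 that of Fst was 0.19. None of them was called. Of all genes, 857 were higher and 961 lower in the endplate than in other cartilage, 493 and 635 with stricter gates, and 323 and 509 without the control library at 3 months, 337 and 549 without that at 12–16 months and 366 and 508 without the mutant library at 12–16 months. With no filter on low counts 2399 were lower in the endplate than in bone/stroma, in place of 1393, and 2441 were lower in other cartilage, in place of 1477.

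Without the library as replicate block, 6, 4 and 6 members were called in place of 6, 4 and 8. With 12 control endplate cells at 12–16 months, low levels there were not detectable.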
